A study of Mus musculus with 34 samples.

Results

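The subunits of the respiratory chain that are encoded in the nucleus were followed in cultures of MOSJ-Dkk-1 cells. The genes were taken by symbol: all symbols of the Nduf families with the letters a, b, c, s or v and a number, the Sdh subunits, the Uqcr genes, Cyc1, Cycs, the Cox subunits numbered 4 to 8 and the Atp5 genes, with pseudogene symbols left out. This gave 82 of the 16576 genes listed, with 37 in complex I, 3 in complex II, 9 in complex III, 15 in complex IV, 17 in complex V and 1 for cytochrome c. The 11 rows with pseudogene symbols of the same families were not counted, and all 82 genes had reads in at least 3 libraries. Sdha, Ndufs3, Ndufa7, Cox4i2, Cox6b2, Cox8b and Cox8c were not analysed here.

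MOSJ-Dkk-1 cells derive from a mouse osteosarcoma line and constitutively express human Dkk-1 from a lentiviral construct with a CMV promoter, so every group below carries the transgene. Cells in log phase were seeded at 500 per cm2 and cultured for 6 days with a change of medium every 2 days, and cells under nutritional stress were held at confluence for 48 h and without a change of medium for 4 days. In each condition the cells received DkkMo, a vivo morpholino directed against Dkk-1, scrMo, a morpholino with mismatches to that sequence, or no treatment (NT). Morpholinos were added from 24 h after seeding. The sources used here differ on the exposure before RNA was collected, given as 6 days or as 1 week. They also give different doses of the morpholinos, so no dose is printed. Each of the 6 groups had 3 libraries. The labels do not say whether these were separate cultures, so the p values measure the spread between libraries, which may be technical. The titles of 2 of the stressed NT libraries give an identical replicate number.

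The respiratory chain sits in the inner mitochondrial membrane. Complex I (NADH dehydrogenase) and complex II (succinate dehydrogenase) pass electrons to ubiquinone, complex III passes them to cytochrome c, and complex IV (cytochrome c oxidase) passes them to oxygen, while complex V (ATP synthase) uses the resulting proton gradient to make ATP. Most subunits are encoded in the nucleus and imported, a few core subunits of complexes I, III, IV and V are encoded in mitochondrial DNA, and complex II is nuclear throughout. Factors such as NRF1, the GABP factors of the ETS family, YY1, CREB and the oestrogen-related receptors are known to bind promoters of the nuclear genes.

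Promoter sequences are shown for genes that behaved differently under nutritional stress in these cultures: Cox6a1, which was lower in each stress comparison, Cycs, lower in the morpholino-treated cultures, Cox7a2l, higher in each, and Uqcrh, higher in NT cultures. The windows run from 250 bases before to 50 bases after the start annotated by RefSeq on GRCm38.p6 and are written 5′ to 3′. Capitals mark the motifs searched on both strands, which were an NRF1 core (GCATGCGC), an ETS site (CCGGAAG), a YY1 site (AAGATGGC), a cAMP response element (TGACGTCA), an E-box (CACGTG) and a site of the oestrogen-related receptors (AAGGTCA).
Cox6a1 (chr5:115348909-115349208, minus strand): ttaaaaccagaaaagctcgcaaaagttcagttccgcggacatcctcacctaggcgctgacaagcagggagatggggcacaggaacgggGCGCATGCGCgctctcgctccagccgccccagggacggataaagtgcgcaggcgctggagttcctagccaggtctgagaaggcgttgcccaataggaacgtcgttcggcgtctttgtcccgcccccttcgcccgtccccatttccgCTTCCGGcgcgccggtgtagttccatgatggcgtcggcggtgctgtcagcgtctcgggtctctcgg
Cycs (chr6:50566520-50566819, minus strand): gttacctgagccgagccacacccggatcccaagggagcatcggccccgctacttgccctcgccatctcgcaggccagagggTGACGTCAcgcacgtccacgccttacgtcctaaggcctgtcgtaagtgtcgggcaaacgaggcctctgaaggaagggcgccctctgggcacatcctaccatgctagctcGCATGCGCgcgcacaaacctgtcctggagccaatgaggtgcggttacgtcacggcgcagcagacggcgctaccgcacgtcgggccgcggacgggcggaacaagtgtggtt
Cox7a2l (chr17:83514284-83514583, minus strand): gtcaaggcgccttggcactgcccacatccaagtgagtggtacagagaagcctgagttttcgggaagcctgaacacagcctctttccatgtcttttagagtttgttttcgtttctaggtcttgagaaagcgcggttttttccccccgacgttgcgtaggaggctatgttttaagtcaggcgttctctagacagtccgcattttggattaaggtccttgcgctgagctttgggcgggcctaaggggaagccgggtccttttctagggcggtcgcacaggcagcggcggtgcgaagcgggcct
Uqcrh (chr4:116075021-116075320, minus strand): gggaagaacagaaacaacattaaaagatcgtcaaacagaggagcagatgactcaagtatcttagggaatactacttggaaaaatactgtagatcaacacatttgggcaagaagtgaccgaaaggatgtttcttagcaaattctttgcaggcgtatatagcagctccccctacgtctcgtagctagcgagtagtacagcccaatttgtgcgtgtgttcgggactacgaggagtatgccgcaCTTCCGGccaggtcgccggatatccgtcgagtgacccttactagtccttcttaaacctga
In the Cox6a1 window, 2 overlapping NRF1 cores begin at -162 and -160, and an ETS site begins at -16 relative to the start. The Cycs window holds an NRF1 core at -60 and a cAMP response element at -169. The Uqcrh window holds an ETS site at -10, and none of the 6 motifs was found in the Cox7a2l window.

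RefSeq promoter windows were matched for 64 of the 82 genes. The NRF1 core was found in 11 of these, or 17.2%, against 3.05% of all genes with a window. The ETS site was found in 16 (25% against 9.93%), the YY1 site in 10 (15.6% against 3.19%), the oestrogen-related receptor site in 8 (12.5% against 5.38%), the cAMP response element in 5 (7.81% against 2.03%) and the E-box in 5 (7.81% against 8.09%). Apart from the E-box, each motif was thus listed for a larger share of the subunit genes than of all genes. Under nutritional stress with scrMo, 8 of the 11 genes with an NRF1 core and 43 of the 53 without were called lower by the test described below. With DkkMo the numbers were 9 of 11 and 45 of 53, and in NT cultures they were 4 of 11 and 31 of 53. The oestrogen-related receptor site gave 8 of 8 and 43 of 56 with scrMo, and 8 of 8 and 46 of 56 with DkkMo. In NT cultures it gave 4 of 8 and 31 of 56. The YY1 site gave 7 of 10 and 44 of 54 with scrMo, and 10 of 10 and 44 of 54 with DkkMo. In NT cultures it gave 8 of 10 and 27 of 54. The ETS site gave 14 of 16 and 37 of 48 with scrMo, and 14 of 16 and 40 of 48 with DkkMo. Its NT numbers were 6 of 16 and 29 of 48. Calls for the cAMP response element and the E-box, each found in 5 genes, are not given here. Differences between genes with and without a motif were not tested.

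The deposited values are counts divided by a size factor for each library and variance-stabilised on the log2 scale, and a log2 fold change is a difference between group means of these values. This scale compresses the changes of genes with few reads. It was reversed to normalized read counts, which are given for single genes. The listed genes received 25.9 to 44.8 M reads in each library (M, mega). The subunit genes took 0.760 to 0.900% of these reads in log phase and 0.603 to 0.670% under nutritional stress. The values are for mouse genes, and the effect of DkkMo on its target, human Dkk-1, was not analysed here. Of 11 markers of the osteochondral lineage, 8 were listed. Runx2, Sox9, Col1a1, Col1a2 and Sparc each had at least 1475 normalized reads in every library, while Alpl, Bglap and Col2a1 had at most 43.9. The summed level of the 8 ranged from 33367 to 96982 in log phase and from 20063 to 24848 under nutritional stress, without overlap and in the direction of most subunits. Sp7, Ibsp and Acan were not analysed here. Of 11 markers of other cell types, 4 were listed. Their summed level, mostly Cd68 and Pecam1, ranged from 701 to 1420 in log phase and from 1633 to 1927 under nutritional stress. Cd68, a marker of macrophages, had 391 to 1551 normalized reads over the libraries, and Pecam1, a marker of endothelium, had 269 to 426. Ptprc and Krt8, which mark leukocytes and epithelial cells, had at most 22.8 normalized reads. The part of these markers in the results was not tested.

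Most of the subunits were strongly expressed, and the mean of 74 of the 82 genes lay above the median gene of the table. In log phase NT cultures the median subunit had 1527 normalized reads per kb of exon. Per length, Cox8a of complex IV was highest at 11076 reads per kb, followed by Atp5b, the catalytic β subunit of ATP synthase, at 8556 and Ndufb9 of complex I at 6094. The median level per length was 1265 reads per kb in complex I, 917 in complex II, 1861 in complex III, 2077 in complex IV and 1710 in complex V.

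**Figure D1:**
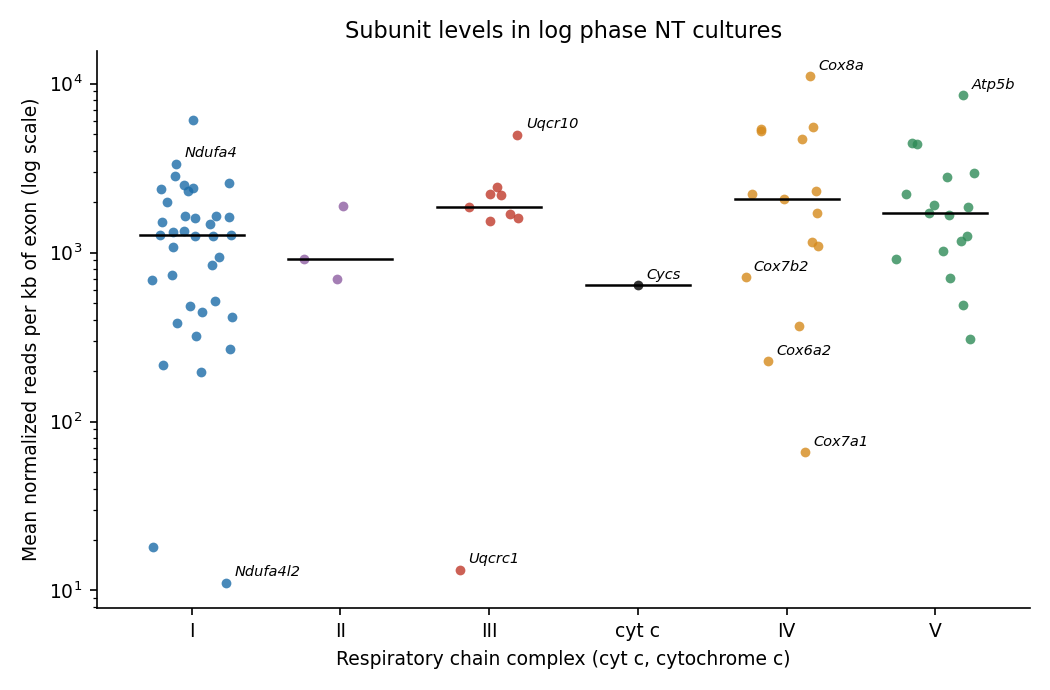
Mean normalized reads per kb of exon in the 3 log phase NT libraries (log scale) for each of the 82 subunit genes, grouped by complex, with a line at the median. Ndufa4l2, Uqcrc1, Ndufb4c and Cox7a1 are the lowest, at 11.1, 13.3, 18.1 and 65.7 reads per kb.

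Several complexes have alternative subunits, and their levels differed widely. Cox6a1, the widely expressed form, had 5255 reads per kb in log phase NT cultures, against 227 for Cox6a2, the heart and muscle form. Cox7a2 had 2077 and the related Cox7a2l, a factor of supercomplex assembly, had 5520.4, while the muscle form Cox7a1 had 65.7. Cox7b had 2298 against 715 for Cox7b2, known from testis. Ndufa4 had 3360.5 against 11.1 for Ndufa4l2. The c ring of ATP synthase is made from 1 protein encoded by several genes, of which Atp5g2 had 4466, Atp5g3 1905 and Atp5g1 488 reads per kb. The forms known from heart, muscle or testis were thus each below their widely expressed counterpart.

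Uqcrc1, a core protein of complex III, was listed at a much lower level than its partner. In log phase NT cultures it had 13.3 reads per kb, against 1604 for Uqcrc2. The Uqcrc1 libraries had 150.2, 70.5 and 51.2 normalized reads in NT, 56.0, 51.3 and 345 in scrMo and 185, 61.3 and 39.6 in DkkMo cultures under nutritional stress, so 1 library of each group stood above its replicates. Uqcrc1 was called in none of the comparisons. Ndufs6b, Ndufb4c and Cox6c2 are close copies of Ndufs6, Ndufb4 and Cox6c, and how the reads were divided between them is uncertain. Ndufb6, Ndufa13 and Atp5o share over 20% of their exon length with another gene.

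The subunit genes varied together among replicate libraries. Library 1 of log phase scrMo was the highest of its group for 79 of the 82 genes, against 41.2% of all genes tested. Library 1 of log phase DkkMo was likewise the highest for 79 of 82, against 37.2% of all genes. Library 2 of NT under nutritional stress was highest for 68 of 82, against 37.0%. Ndufa4, for example, had 4628, 4669 and 4625 normalized reads in log phase NT, 5943, 4721 and 4678 in log phase scrMo and 6395, 5694 and 4866 in log phase DkkMo cultures. Counts of calls that rest on these libraries are given below with and without them.

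**Figure D2:**
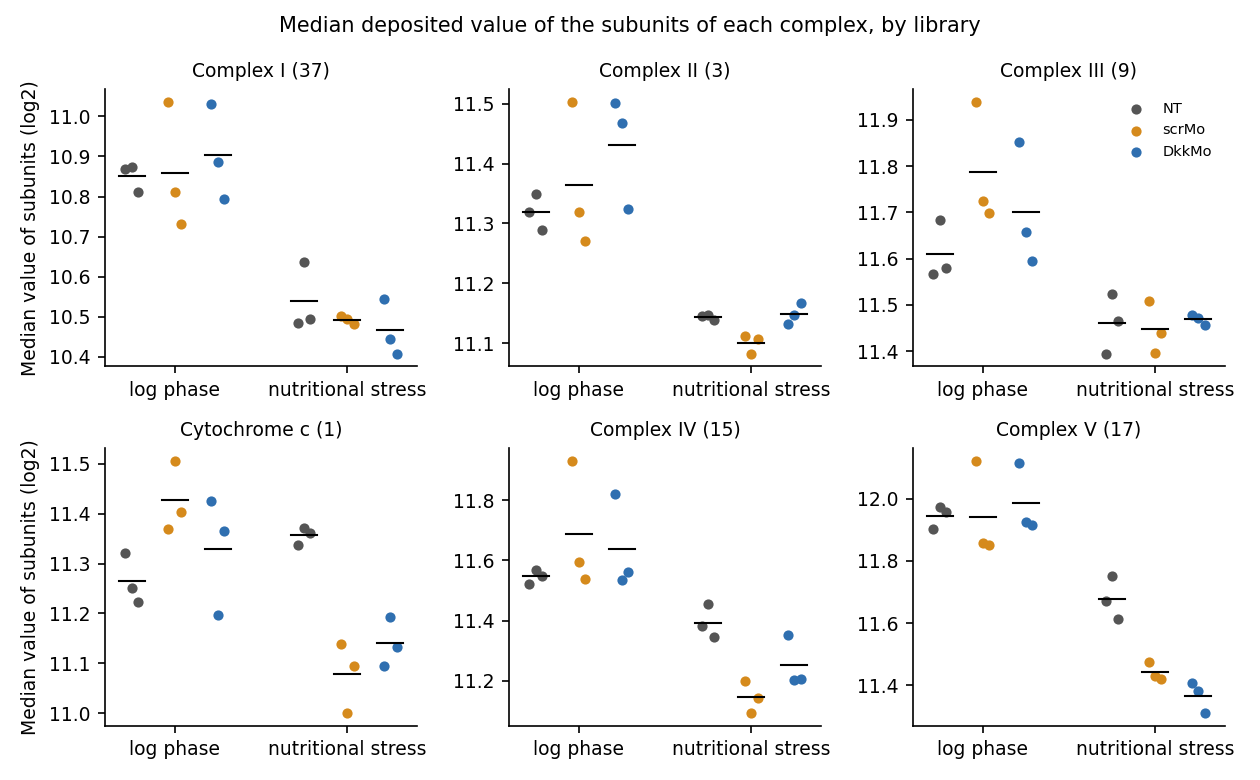
Median deposited value (log2 scale) of the subunits of each complex in each library, with the number of subunits in parentheses and a line at the mean of the 3 libraries of a group. In complexes I to V the libraries under nutritional stress lie below all log phase libraries, whereas cytochrome c in NT cultures does not.

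The first question was how the subunits changed between log phase and nutritional stress. Most were lower under stress, with each of the treatments. In NT cultures 43 of the 82 genes were lower and 9 higher at an adjusted p below 0.05 (limma), where 34.1% of all genes tested were lower and 31.5% higher. In scrMo cultures 65 were lower and 3 higher, against 30.8% and 28.0% of all genes. In DkkMo cultures 67 were lower and 3 higher, against 35.2% and 30.4%. The median log2 fold change of the 82 genes was -0.20 in NT, -0.39 in scrMo and -0.38 in DkkMo cultures, while that of all genes was -0.014, -0.0060 and -0.011. The NT split depended on the scaling: after median centring, in which the median of every library is set to one value, 24 genes were lower and 18 higher, and the all-gene median itself moved to 0.14 (0.15 in DkkMo cultures). Centring shifts every gene of a library alike, so it cannot change the distance of the subunit median from the all-gene median, which was -0.19 in NT and -0.37 in DkkMo cultures. Without library 1 of log phase scrMo, 54 genes were lower and 3 higher in the scrMo comparison, and without library 1 of log phase DkkMo, 56 were lower and 3 higher in the DkkMo comparison. In bulk RNA, fewer cells of a kind and less RNA per cell cannot be told apart.

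The changes were modest in size. Over 1.5-fold, 8 genes were lower and 2 higher in NT (9.90% and 8.22% of all genes), 12 lower and none higher in scrMo (6.28% and 4.38%) and 20 lower and 1 higher in DkkMo cultures (10.2% and 6.24%). In NT cultures the share of subunits lower to this extent was near that of all genes. These counts rest on the compressed scale. On log2 of the normalized count plus 1 they were 13 lower and 2 higher in NT, 26 and 1 in scrMo and 29 and 1 in DkkMo cultures, and limma voom on the reads gave 15 lower in NT and otherwise the same numbers. After median centring, 3 were lower and 4 higher in NT, 8 and none in scrMo, and 8 and 2 in DkkMo cultures. The shares of all genes over 1.5-fold under these alternatives are not given here, so these counts have no background beside them.

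The 3 comparisons share no libraries. In all 3, 40 genes were lower, where 19.5% of all genes tested were: 20 of complex I, 1 of complex II, 3 of complex III, 6 of complex IV and 10 of complex V. Only 3 genes, Ndufa6, Cox7a2l and Cox6a2, were higher in all 3 (16.6% of all genes), and 6 were called in none (14.5%).

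**Figure D3:**
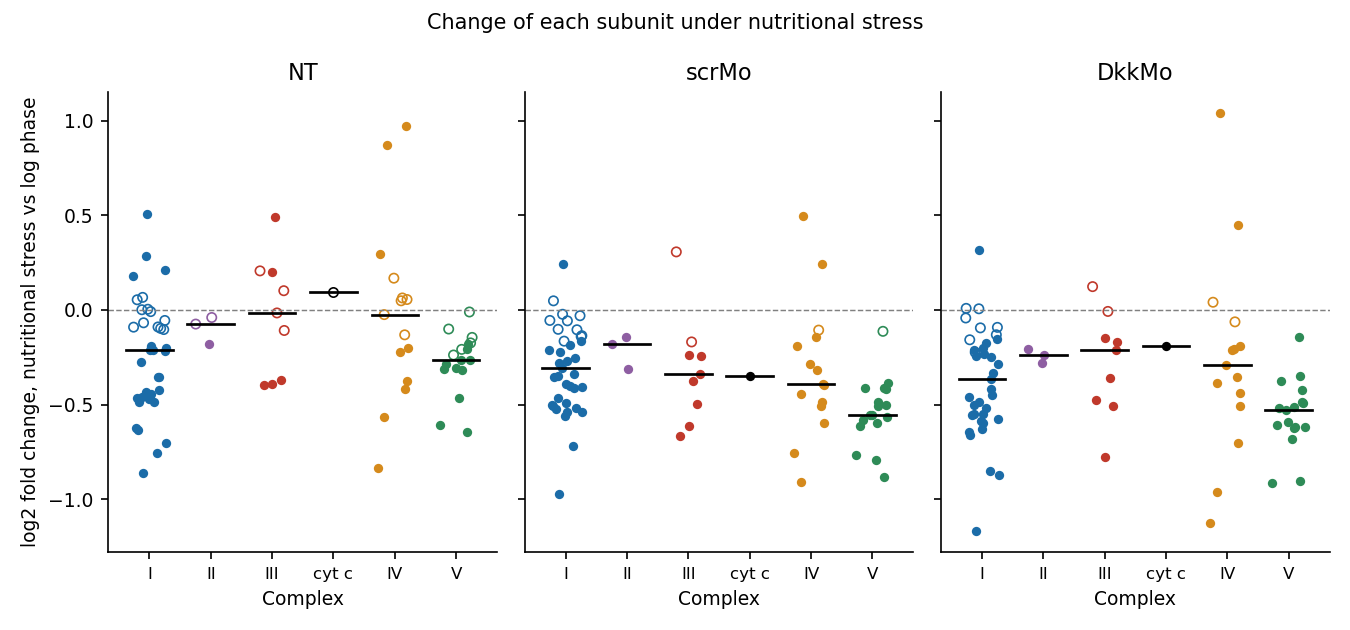
Log2 fold change of each subunit gene between nutritional stress and log phase in NT, scrMo and DkkMo cultures, by complex. Filled points have an adjusted p below 0.05 (limma), open points do not, and lines mark the median, which for complex V was -0.26 in NT, -0.55 in scrMo and -0.53 in DkkMo cultures.

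In complex I, 22 of 37 subunits were lower and 4 higher in NT, 26 lower and 1 higher in scrMo, and 28 lower and 1 higher in DkkMo cultures under nutritional stress. The median changes were -0.21, -0.30 and -0.36. Of the 6 listed core subunits, those that carry the cofactors and the catalytic sites, 3 were lower in NT, 3 in scrMo and 4 in DkkMo cultures. Ndufs8 and Ndufv2 were lower in each, with log2 fold changes of -0.35 to -0.52 and of -0.35 to -0.42. Most of the accessory subunits were also called lower in each comparison. Ndufa5 fell by 0.75 ± 0.09, 0.72 ± 0.09 and 0.85 ± 0.09 (log2, SE, n = 3 per group) in NT, scrMo and DkkMo cultures. Ndufv3 fell from 1362, 1307 and 1291 to 730.2, 753 and 655 normalized reads in NT and from 1807, 1719 and 1315 to 817, 729 and 729 in DkkMo cultures, with no overlap between the conditions.

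Ndufa4 showed the largest fall of all subunits on the variance-stabilised scale in each stress comparison. On log2 of the normalized count plus 1, Cox7b2 fell further, with changes of -1.58, -1.41 and -2.05 in NT, scrMo and DkkMo cultures, against -0.94, -1.05 and -1.26 for Ndufa4. Ndufa4 was first described in complex I, by which it is named, and is now assigned to complex IV. Under nutritional stress it had 2409, 2488 and 2380.2 normalized reads in NT, 2499, 2364 and 2515 in scrMo and 2545, 2348 and 2149 in DkkMo cultures, all below the log phase libraries given above. The log2 fold changes were -0.86 ± 0.09, -0.97 ± 0.09 and -1.17 ± 0.09 (SE), with adjusted p values of 3.68e-08, 1.57e-08 and 6.20e-10 (limma). Ndufa6, an accessory subunit, went the other way. It had 2906, 3057 and 2889 normalized reads in log phase and 4090.1, 4679 and 4188 under nutritional stress in NT cultures, a log2 fold change of 0.51 ± 0.08 (adjusted p = 9.55e-06, limma). With scrMo the rise was 0.24 with overlapping libraries, and with DkkMo it was 0.32. Ndufs7, Ndufa10 and Ndufb11 were also higher under stress in NT cultures, by 0.21, 0.18 and 0.29 on the log2 scale. In scrMo cultures the values were -0.14, -0.21 and -0.02, of which that of Ndufa10 passed the test. In DkkMo cultures they were -0.15, -0.042 and 0.0061, of which that of Ndufs7 passed (adjusted p = 0.0472, limma), so Ndufs7 and Ndufa10 were each called in opposite directions in NT and with 1 of the morpholinos. These 3 genes were named after their values were seen.

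**Figure D4:**
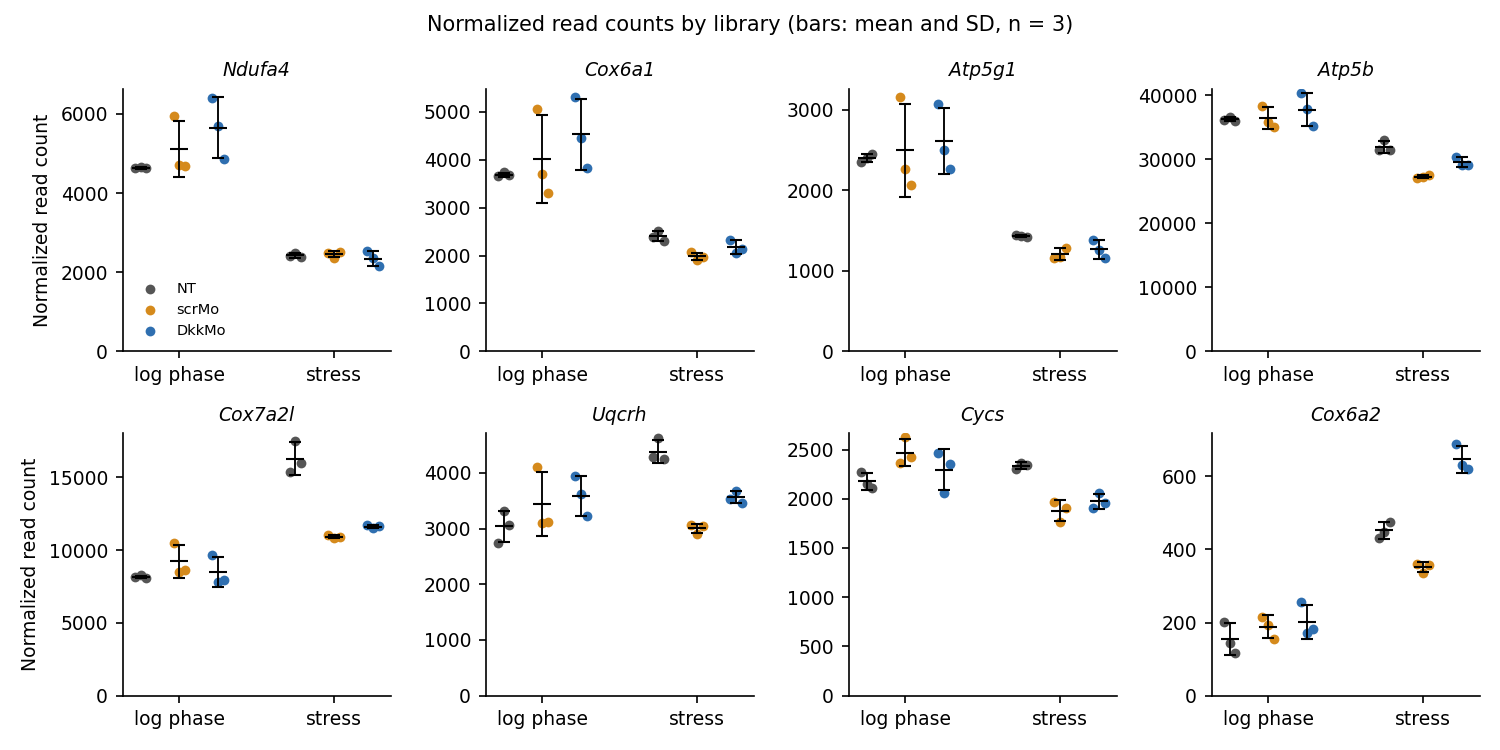
Normalized read counts of 8 subunit genes in each library of log phase and nutritional stress, with the mean and SD of the 3 libraries. Ndufa4, Cox6a1 and Atp5g1 lie lower under nutritional stress with each treatment, Cox6a2 lies higher, and Cox7a2l and Uqcrh are highest in NT cultures under stress.

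The 3 listed subunits of complex II had log2 fold changes between -0.31 and -0.04. Sdhc, a membrane anchor, had 2270.3, 2323 and 2216 normalized reads in log phase and 1981, 1968 and 1969.6 under nutritional stress in NT cultures, and its fold changes of -0.18, -0.14 and -0.28 on the log2 scale all passed the test. That in scrMo cultures was no longer called without any one of 4 libraries, among them library 1 of log phase scrMo, where it was -0.06. Sdhb, the iron-sulphur subunit, and Sdhd, the other anchor, were not called in NT cultures (-0.07 and -0.04). They were lower with scrMo (-0.18 and -0.31) and with DkkMo (-0.21 and -0.24). After median centring, none of the DkkMo values of complex II passed the test.

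In complex III, 3 of 9 subunits were lower and 2 higher in NT cultures, whereas 7 were lower and none higher with either morpholino. The NT split was 2 lower and 3 higher after median centring, and 4 were lower with DkkMo. Uqcr11, Uqcrq and Uqcrb, small accessory subunits, were lower in all 3 comparisons. The largest fall was that of Uqcr11 in DkkMo cultures, at -0.78 ± 0.10 (SE). Uqcrh, the hinge protein that contacts cytochrome c1, had 2748, 3313 and 3058 normalized reads in log phase and 4287, 4616 and 4239.9 under nutritional stress in NT cultures. The ranges did not overlap, and the log2 fold change was 0.49 ± 0.09 (adjusted p = 5.09e-05, limma). In scrMo cultures Uqcrh had 4096, 3097 and 3120.2 in log phase and 3060.4, 2909 and 3040.0 under stress, and its change of -0.17 did not pass the test. With DkkMo it had 3940, 3615 and 3223 in log phase and 3539, 3682 and 3465 under stress, and it was not called. Uqcrfs1, the Rieske iron-sulphur protein, was higher in NT (0.20) and lower with scrMo (-0.24) and DkkMo (-0.15), the only gene called in opposite directions in NT and under both morpholinos. Cyc1, cytochrome c1, was at -0.02 in NT, -0.37 with scrMo and -0.36 with DkkMo.

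Cycs, the soluble carrier between complexes III and IV, had 2273, 2151 and 2105 normalized reads in log phase and 2301, 2363 and 2347 under nutritional stress in NT cultures. The change of 0.09 (95% confidence interval -0.03 to 0.22) did not pass the test, but was called higher after median centring. With scrMo it fell from 2362, 2622 and 2425 to 1971, 1765 and 1904, a log2 fold change of -0.35 ± 0.06 (adjusted p = 4.28e-05, limma). With DkkMo the fall was 0.19 ± 0.06 (adjusted p = 0.00799, limma) and was no longer called with quantile normalization or after median centring.

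Complex IV held both the largest rises and some of the largest falls. In NT cultures 6 of 15 subunits were lower and 3 higher, in scrMo cultures 12 were lower and 2 higher, and in DkkMo cultures 11 were lower and 2 higher. After median centring the split turned in NT cultures, to 3 lower and 7 higher, and it was 10 and 2 with scrMo and 6 and 3 with DkkMo. Cox7a2l had 8126, 8259 and 8093 normalized reads in log phase NT cultures and 15373, 17532 and 15988 under nutritional stress, a log2 fold change of 0.97 ± 0.08 (adjusted p = 1.92e-09, limma). In scrMo cultures it had 10516, 8503 and 8655 and 11039, 10839 and 10922, and in DkkMo cultures 9685, 7822 and 7972 and 11707, 11535 and 11628. The rise was thus 0.24 with scrMo and 0.45 with DkkMo, and that with scrMo was not called without library 2 or library 3 of log phase scrMo (0.19 and 0.20). Cox7c, by contrast, was higher in NT (0.30), lower with scrMo (-0.19) and not called with DkkMo (0.04).

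The alternative forms of complex IV subunits moved unequally. Cox6a2 had 202, 144 and 117 normalized reads in log phase NT cultures and 431, 448 and 476 under nutritional stress. With scrMo it went from 216, 195 and 156 to 359, 335 and 359, and with DkkMo from 255, 171 and 181 to 689, 631 and 619. The log2 fold changes of 0.87 ± 0.08, 0.50 ± 0.08 and 1.04 ± 0.08 (SE) each passed the test. Cox6a1 fell over the same conditions, from 3659.8, 3735 and 3672 to 2386, 2519 and 2314 in NT cultures, with log2 fold changes of -0.56 ± 0.11, -0.91 ± 0.11 and -0.96 ± 0.11. Cox6a1 remained above Cox6a2 in every library. Cox7b2 fell by 0.83 ± 0.08, 0.76 ± 0.08 and 1.12 ± 0.08, while Cox7b was at 0.06 in NT and lower with scrMo (-0.39) and DkkMo (-0.51). Cox4i1, Cox6b1 and Cox8a were not called in NT cultures, at 0.05, -0.02 and -0.13, and were lower with scrMo, at -0.32, -0.45 and -0.51. With DkkMo they were at -0.21, -0.39 and -0.35, all called. The call for Cox4i1 (adjusted p = 0.0415, limma) was lost without any one of 5 libraries, among them each DkkMo library under stress.

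In complex V, 11 of 17 subunits were lower in NT cultures, 16 in scrMo and all 17 in DkkMo, and none was higher. These numbers were 4, 16 and 16 after median centring, again with none higher. The median deposited value of its subunits was 11.90 to 11.97 over the log phase NT libraries and 11.61 to 11.75 under stress. With scrMo it went from 11.85 to 12.12 to 11.42 to 11.47, and with DkkMo from 11.92 to 12.12 to 11.31 to 11.41. Atp5g1, a source of the c subunit, had 2349, 2395 and 2444 normalized reads in log phase and 1446, 1428 and 1422 under stress in NT cultures. Its log2 fold changes were -0.65 ± 0.11, -0.88 ± 0.11 and -0.90 ± 0.11 (SE), against -0.29, -0.58 and -0.52 for Atp5g2 and -0.31, -0.55 and -0.59 for Atp5g3. Atp5j, a subunit of the stalk, fell by 0.61 ± 0.07, 0.77 ± 0.07 and 0.91 ± 0.07. Atp5b had 36184, 36547 and 36020.3 normalized reads in log phase and 31394, 32996 and 31450.4 under stress in NT cultures, the highest counts among the subunits, and fell by 0.18, 0.41 and 0.35 on the log2 scale.

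Whether the stress response differed between treatments was tested directly, as an interaction of treatment with culture condition. For scrMo against NT, 24 subunits had a more negative and 1 a more positive change with scrMo, against 23.2% and 22.8% of all genes. The share more negative was near that of all genes, and the share more positive was below it. The median difference was -0.18 on the log2 scale. The medians were -0.06 in complex I, -0.27 in complex III, -0.37 in complex IV and -0.30 in complex V. On the variance-stabilised scale the largest differences were those of Cox7a2l, -0.73 ± 0.11 (SE), and Uqcrh, -0.66 ± 0.12, followed by Cox7c at -0.49, Cox7a2 at -0.45, Cox7b at -0.45 and Cycs at -0.44. Ndufb2 was the subunit with a positive difference, 0.28, since it fell by 0.63 in NT and by 0.36 with scrMo. Without library 3 of log phase scrMo, 38 subunits were called more negative. Without library 1 of that group the numbers were 20 more negative and 3 more positive, and the median difference was -0.11. With quantile normalization 15 were more negative and 3 more positive.

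For DkkMo against NT, a comparison added after the data were seen, 23 subunits had a more negative and none a more positive change, against 16.8% and 12.3% of all genes, with a median difference of -0.21. Cox7b (-0.56 ± 0.10), Cox7a2l (-0.52 ± 0.11), Uqcrh (-0.50 ± 0.12), Atp5h (-0.47 ± 0.10) and Cox7a2 (-0.46 ± 0.11) were the largest on the variance-stabilised scale. This number moved widely when single libraries were left out. It was 14 and 13 without library 1 and 3 of log phase NT, 11 and 35 without library 1 and 3 of log phase DkkMo, 12 without library 2 of NT under stress and 13 without library 3 of DkkMo under stress. With quantile normalization it was 8. Both interactions use the same NT libraries.

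**Figure D5:**
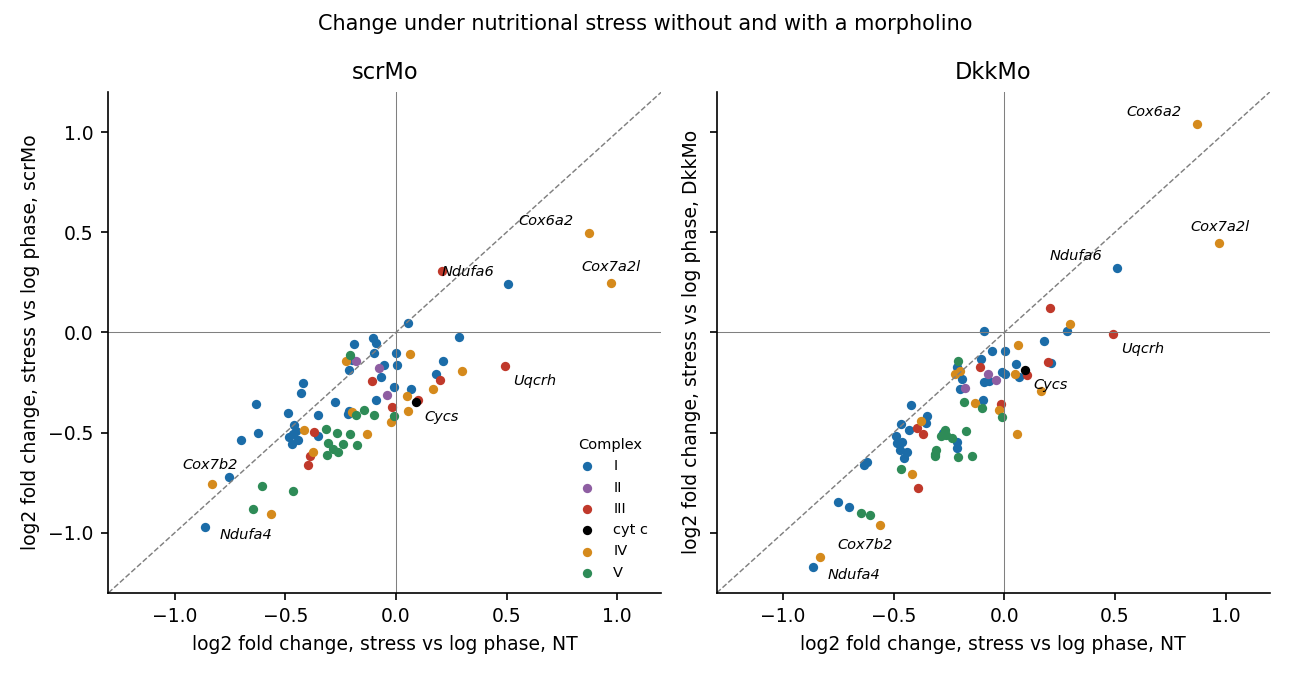
Log2 fold change between nutritional stress and log phase for each subunit gene in NT cultures (x axis) and in scrMo or DkkMo cultures (y axis), coloured by complex, with a dashed line of equal change. Most points lie below the line. Cycs lies above 0 in NT, where it was not called, and below 0 with either morpholino. Uqcrh lies above 0 in NT and was not called with either morpholino.

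Compared directly under nutritional stress, 31 subunits were lower and 1 higher in scrMo than in NT cultures (24.7% and 22.1% of all genes tested), with a median log2 fold change of -0.14. Complexes IV and V held 9 and 10 of the 31, and complex I held 6. Cox7a2l was lower by 0.56 ± 0.08 (adjusted p = 1.10e-05, limma) and Uqcrh by 0.50 ± 0.09 (adjusted p = 9.73e-05, limma). Without library 2 of NT under stress, which stood high for most subunits, 17 were lower and 1 higher, and with quantile normalization 12 were lower and 3 higher. With only the scrMo and NT libraries under stress in the fit, 48 were lower and 8 higher. Between DkkMo and NT cultures, 21 subunits were lower and 1 higher (22.7% and 19.0% of all genes). The share lower was near that of all genes. The lower ones numbered 12 without library 2 of NT and 38, beside 2 higher, with only these groups in the fit, and with quantile normalization 7 were lower and 2 higher. Atp5h, the d subunit of the ATP synthase stalk, was the only subunit past 1.5-fold (1.54% of all genes were lower and 1.12% higher to that extent). It had 3765, 4275 and 3729.7 normalized reads in NT, 3446, 3210.3 and 3415 in scrMo and 2432, 2381 and 2255 in DkkMo cultures, and the 3 DkkMo libraries lay below all others. The log2 fold change against NT was -0.67 ± 0.07 (adjusted p = 9.12e-07, limma).

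DkkMo was compared with scrMo, the control for the morpholino itself. Under nutritional stress 2 subunits were higher and 3 lower, against 9.97% and 10.9% of all genes tested, and the median change was 0.02. After median centring the split was 4 higher and 3 lower, and with quantile normalization it was 3 and 3. With only these groups in the fit, 12 were higher and 12 lower. Cox6a2 was higher by 0.59 ± 0.08 (adjusted p = 6.29e-05, limma), the only change over 1.5-fold (0.513% of all genes were higher and 0.489% lower to that extent), with all 3 DkkMo libraries above the scrMo libraries given above. Cox7c was also higher, at 0.24 ± 0.06. Atp5h was lower by 0.46 ± 0.07 (adjusted p = 1.22e-04, limma), Ndufb2 by 0.25 ± 0.06 and Ndufs1, a core subunit of complex I, by 0.19 ± 0.05. In the test of the difference between culture conditions, Cox6a2 had a more positive DkkMo change under stress (0.54 ± 0.12), and Cox7b2 (-0.37 ± 0.11) and Ndufb2 (-0.31 ± 0.09) a more negative one. These were the 3 calls among the subunits, against 8.93% more positive and 13.2% more negative among all genes. Without library 1 of log phase scrMo 1 was more positive and 11 more negative, without library 1 of log phase DkkMo the numbers were 4 and 2, and without library 3 of log phase DkkMo they were 1 and 4. After median centring the calls were 7 more positive and none more negative.

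In log phase, treatments differed little for these genes. Between DkkMo and scrMo, Cox7b2 (0.28 ± 0.08) and Cox6c (0.24 ± 0.07) were higher and Atp5h (-0.23 ± 0.07) lower, where 14.3% and 9.20% of all genes tested were higher and lower. The Cox7b2 libraries had 439, 326 and 381 normalized reads with scrMo and 560.0, 467 and 503 with DkkMo, without overlap. Cox6c had 4665, 3698 and 3717 with scrMo and 5211, 4684 and 4462 with DkkMo, with overlap. The count rested on the libraries that stood high: without library 1 of log phase scrMo 19 subunits were higher and none lower, and without library 1 of log phase DkkMo none was higher and 5 were lower. It was 7, all higher, without library 3 of DkkMo, and 1, lower, without library 2 of scrMo, and after median centring 6 were lower. Between scrMo and NT, Uqcrfs1 (0.21 ± 0.05) and Cycs (0.16 ± 0.06) were higher and none was lower, against 11.8% and 14.6% of all genes. Without library 1 of scrMo 2 were higher and 1 lower. The count became 1 without library 3 of NT or library 2 of scrMo and 11, all higher, without library 3 of scrMo. Between DkkMo and NT, Cox7b2 (0.26 ± 0.08) and Cox7b (0.22 ± 0.07) were higher and none was lower, against 5.36% and 4.46%. Without library 3 of DkkMo 7 were higher, without library 1 of DkkMo 1 was lower, without library 1 of NT 1 was higher, and without library 2 or 3 of NT none was called by limma, with 17 and 11 at an unadjusted p below 0.05. With only the groups compared in the fit, limma called no subunit in the 3 log phase comparisons, in which 3 (DkkMo against scrMo), 7 (scrMo against NT) and 16 (DkkMo against NT) had an unadjusted p below 0.05.

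Other genes of mitochondrial energy metabolism were read in the same fit. Of the 13 mRNAs of mitochondrial DNA, 9 were listed. In NT cultures 7 were lower and none higher under nutritional stress, with a median log2 fold change of -0.98, and in DkkMo cultures 7 were lower with a median of -0.64. In scrMo cultures 6 were higher and 1 lower, with a median of 0.53, while the nuclear subunits were mostly lower. The scrMo libraries under stress gave 5.30 to 5.80% of reads to genes of the mitochondrial genome, against 1.54 to 2.68% in the other groups. These shares include mitochondrial rRNA, which took 1.65 to 1.95% of reads in these libraries and 0.070 to 0.39% in the other groups. The part of this in the results was not tested.

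The counts of the following lists stand beside 34.1%, 30.8% and 35.2% of all genes lower, and 31.5%, 28.0% and 30.4% higher, in NT, scrMo and DkkMo cultures. Of the factors that assemble the complexes, 21 of 43 were lower and 4 higher in NT, 24 and 2 in scrMo, and 23 and 3 in DkkMo cultures under nutritional stress. After median centring they were 10 and 11 in NT, 19 and 5 in scrMo, and 13 and 11 in DkkMo cultures. Uqcc2, needed for complex III, fell by 0.75, 0.78 and 0.85 on the log2 scale. Of 15 regulators, 11 were higher and 2 lower in NT, 4 and 3 in scrMo, and 9 and 2 in DkkMo cultures. This list also held factors that act on mitochondrial DNA or its RNA, among them Tfam and Tfb1m, the 2 lower in NT. Ppargc1a, the coactivator PGC-1α, rose by 1.89, 1.57 and 1.59, and Tfb1m, a mitochondrial rRNA methyltransferase, fell by 0.58, 0.43 and 0.54.

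Of 14 enzymes of the tricarboxylic acid cycle, 8 were lower and 3 higher in NT, 9 and 1 in scrMo, and 10 and 2 in DkkMo cultures under nutritional stress. Suclg1, a subunit of succinyl-CoA ligase, was the most changed of them in each, at -0.75, -0.87 and -0.97 on the log2 scale. Of 15 genes of glycolysis, 5 were lower and 3 higher in NT, 10 and 1 in scrMo, and 14 and 1 in DkkMo cultures. The NT share was near that of all genes, and after median centring 4 were lower and 7 higher there. Eno1, encoding enolase, was at -0.80, -1.32 and -1.54. The 73 mitochondrial ribosomal proteins had medians of -0.08, -0.23 and -0.18, beside the -0.20, -0.39 and -0.38 of the respiratory chain subunits, and after median centring that in NT became 0.077.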

How the data were processed

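RNA sequencing of the 18 libraries from cell culture was used, and the tumours of the series were not used here. The authors aligned reads to GRCm38 with HISAT2 2.1.0, handled alignments with SAMtools 1.9, obtained counts from featureCounts (Subread 2.0.0) and deposited values of the DESeq2 variance-stabilising transformation, which are on the log2 scale and normalized by size factors. Strandedness and the treatment of multi-mapping reads are not given in the sources used here.

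The transformation was reversed, and all values came out as whole reads within 0.01. Normalized counts are reads divided by the size factor, and levels per length use GENCODE M21 exons. Rows whose values spanned over 6 within a group (14, none a subunit) were set aside, a step chosen after seeing the data, and the other 16562 genes entered a limma fit (version 3.58.1, R 4.3.3) with 6 group means, all 18 libraries and a variance trend. P values were adjusted by Benjamini-Hochberg over all genes tested. Exact permutation of 3 against 3 libraries cannot go below 0.1 and was not used. The procedure was tested on simulated data. Genes named by rule are the 4 largest rises and falls among called subunits, those over 1.5-fold, complex II, Cycs and alternative forms. Up to 3 genes were named per other list. Further subunits, such as Ndufs8, Ndufv2, Uqcrb and Atp5b, were named outside this rule. So were Uqcrfs1, Cyc1 and Cox7c in the comparisons of stress with log phase. The subunits and lists were chosen with earlier results of these data known. The minimum of 3 libraries above the lowest value removed 0 genes, so the alternative of no filter is the same fit. Other alternatives were median centring, quantile normalization, log2 of the normalized count plus 1, only the groups compared, a replicate block, each library left out and, chosen after seeing the data, limma voom on the recovered reads with the same size factors, the 14 rows included and the interaction of DkkMo against NT.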

Additional observations from a re-analysis of the deposited data

Results flagged for a closer look

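The change under nutritional stress differed between treatments in a test of the difference itself for 25 subunits with scrMo against NT. Of these, 24 were more negative and 1 more positive, against 23.2% and 22.8% of all genes tested. The share of subunits more negative was thus near that of all genes, and the share more positive was below it. The differences (log2) were -0.73 for Cox7a2l, -0.66 for Uqcrh, -0.49 for Cox7c, -0.45 for Cox7a2, -0.45 for Cox7b, -0.44 for Cycs, -0.42 for Cox6b1, -0.38 for Cox8a, -0.38 for Cox6a2, -0.37 for Cox4i1 and -0.27 for Sdhd. Ndufb2 was the exception, with a positive difference of 0.28. The call for Cox8a was lost without any one of 10 libraries.

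With DkkMo against NT, 23 subunits differed between conditions, including Cox7b (-0.56), Cox7a2l (-0.52), Uqcrh (-0.50), Atp5h (-0.47), Cox7a2 (-0.46), Cox6b1 (-0.36) and Cycs (-0.28). All 23 were more negative, where 16.8% of all genes tested were more negative and 12.3% more positive. With DkkMo against scrMo, 3 subunits differed: Cox6a2 (0.54), Cox7b2 (-0.37) and Ndufb2 (-0.31). Among all genes, 8.93% were more positive and 13.2% more negative there. The groups held 3 libraries each, too few for a test of single libraries.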

How the results depend on the processing

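With each library centred on its median, the median log2 change of the subunits under nutritional stress became -0.042 in NT and -0.22 in DkkMo cultures. The subunits called became 6 (DkkMo against scrMo, log phase), 9 (scrMo against NT, log phase) and 0 (DkkMo against NT, log phase). In the interactions they became 41 for scrMo against NT (median -0.28) and 7 for DkkMo against scrMo (median 0.091). Quantile normalization gave 15 for scrMo and 9 for DkkMo against NT under stress, 0 for DkkMo against NT in log phase, and 8 for the DkkMo against NT interaction (median -0.11). The log2 of the normalized count plus 1 gave a median of -0.50 and voom one of -0.50 for stress in DkkMo cultures. Calls for DkkMo against NT in log phase were 0 with the log2 of the count plus 1 and 1 with the 14 rows included. Voom with TMM factors was planned and was not run.

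With only the groups compared in the fit, calls were 24 (12 higher, 12 lower) for DkkMo against scrMo, 56 (48 lower) for scrMo against NT and 40 (38 lower) for DkkMo against NT under stress, and 0 for each of the 3 log phase comparisons. In no comparison did every pair of same-numbered libraries correlate over 0.1 in their deviations from the group means. All 3 pairs were positive (0.048 to 0.52) for stress in DkkMo cultures. For DkkMo against scrMo in log phase the pairs had a mean correlation of 0.47 (-0.039 to 0.72), against -0.21 for libraries with different numbers. Libraries correlating best with their own number were 0 to 4 of 6. The numbers were not taken as pairs in the main fit, and whether the log phase DkkMo and scrMo libraries were paired is not known. With the number as a replicate block, calls were 22 for DkkMo against scrMo and 49 for scrMo against NT under stress, and 0 for scrMo and DkkMo against NT in log phase. In the other comparisons it moved no count of calls by over 1.5 times against the fit of all 18 libraries. For DkkMo against scrMo in log phase, calls were 4 (3 higher, 1 lower) with the block and 0 without it in the same groups. There, 14 subunits with the block and 3 without it had an unadjusted p below 0.05 (limma).

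Leaving out 1 library at a time, calls ranged over 48 to 52, 57 to 69 and 59 to 73 for stress in NT, scrMo and DkkMo cultures (medians -0.22 to -0.17, -0.44 to -0.30 and -0.45 to -0.32). Under stress they ranged over 4 to 5 for DkkMo against scrMo, 18 to 32 for scrMo against NT and 13 to 22 for DkkMo against NT, and in log phase over 1 to 19, 1 to 11 (median -0.030 to 0.098) and 0 to 7. In the interactions they ranged over 20 to 39 for scrMo against NT (median -0.25 to -0.11), 2 to 12 for DkkMo against scrMo and 11 to 35 for DkkMo against NT (median -0.26 to -0.12). For single subunits named by the rule, 1756 of 1910 values under an alternative kept direction and call, 154 lost the call and none reversed. These subunits were all called in the main fit, so a call could be kept or lost but not gained. The 1910 values include those with no filter, which is the same fit and cannot differ. Genes with few reads, such as Ndufa4l2 and Ndufb4c, limit what the depth can show.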
